A study of Homo sapiens with 6 samples.

Results

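LINC genes are genes of long RNAs that were named by number when no protein product or function was known. In ZR-75-30 cells, an established human breast adenocarcinoma line with amplified ERBB2, 166 of the 874 symbols of the form LINC plus digits reached 10 or more counts in at least 3 of the 6 libraries. These 166 genes are described here, out of 26364 gene symbols in all. The cells were infected with a lentivirus, either the empty control vector (pLVX) or the same vector with CDK12 (pLVX-CDK12), and each group held 3 libraries. CDK12 is the partner kinase of cyclin K and phosphorylates elongating RNA polymerase II. Polyadenylated RNA was captured, with a kit that keeps the strand. The series' design calls the libraries biological replicates but does not say whether they came from separate infections, so a p-value here sets a difference against the spread between these libraries.

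Long non-coding RNAs are made by RNA polymerase II, and many are spliced, capped and polyadenylated like messenger RNAs. Many stay in the nucleus and are short-lived, because the nuclear RNA exosome and its adaptors degrade them. Some act in the cytoplasm, some act on a neighbouring gene, some are the precursors of microRNAs, and a few turned out to encode microproteins.

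The libraries held 21178163 to 26543653 counts. The level of CDK12 itself checked the labels: it was 72.8 to 81.8 for the control group and 2009 to 2240 for the CDK12 group in CPM, the count scaled to a fixed library total with TMM factors. Reads of the viral and the cells' own CDK12 were counted together. All 10 epithelial and luminal breast markers were tested, and 1 rose and 4 fell, where 16.2% of all genes rose and 18.9% fell. Their summed levels were 14407 to 15097 CPM (control) and 12830 to 13407 CPM (CDK12). The summed level of 5 leukocyte markers was 5.28 to 6.28 CPM for control and 3.12 to 3.21 CPM for CDK12, and CD3E was near 0, with 0 to 3 counts per library. PTPRC, the general leukocyte marker CD45, fell from 2.96 to 0.358 CPM, CD14 rose from 0.476 to 0.852 CPM, and CD68 did not pass. The 6 fibroblast markers summed to 46.6 to 51.4 and 60.3 to 71.2 CPM, nearly all of it COL1A1, which rose from 48.2 to 63.8 CPM. COL3A1 fell from 0.602 to 0.109 CPM, and COL1A2, too scarce to test, had 5, 8 and 7 counts and then 3, 0 and 1. The 4 endothelial markers summed to 2.45 to 3.29 and 1.56 to 2.17 CPM. The part of these markers in the LINC results was not tested. CDK12 replicate 1 stood farther from the other libraries of its group than they did from each other, with 4.44 to 4.55 times the counting variance per gene against 2.74 to 2.92 for the other pairs within a group.

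The name does not make these genes intergenic or non-coding. Of the 166, 148 could be placed in the GENCODE 29 annotation of GRCh38, 126 by the same symbol and the rest by a newer one. GENCODE 29 lists 96 of them as lincRNA, 15 as antisense and 12 as protein-coding. Among the 144 placed genes that were tested, 61 overlapped another gene on either strand and 46 shared exon bases with one. The strand setting of the counting is not given in the sources used here, so the counts of those 46 are uncertain. Near-identical copies elsewhere were found for 10 tested genes, LINC00342, LINC00657 and LINC00674 among them. The search did not find the known duplicate of LINC00152, so the 10 may not be all.

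The sequences of 4 promoters are shown, for the largest rises and falls with at least 1 CPM in the higher group, a promoter entry and no protein-coding annotation in GENCODE 29. Only 3 of the genes that fell had a promoter entry, and LINC00116 among them is listed as protein-coding. The falls shown are therefore small ones, of LINC00152 and LINC01278 (log2 fold change -0.28 and -0.22). Larger falls, of LINC00536, LINC00342, LINC01468 and LINC00854, are not shown. Each sequence runs from 250 bases before to 50 bases after the RefSeq start (GRCh38.p14). Capitals mark matches on either strand to the motifs spelled out after the sequences and to the full p53 site. A p53 element is RRRCWWGYYY, where R is A or G, W is A or T and Y is C or T. The full p53 site is a pair of p53 elements with 0 to 13 bases between them. Single p53 elements were searched as well and are not marked.
LINC01021, GRCh38.p14 chr5:27472042-27472341, + strand: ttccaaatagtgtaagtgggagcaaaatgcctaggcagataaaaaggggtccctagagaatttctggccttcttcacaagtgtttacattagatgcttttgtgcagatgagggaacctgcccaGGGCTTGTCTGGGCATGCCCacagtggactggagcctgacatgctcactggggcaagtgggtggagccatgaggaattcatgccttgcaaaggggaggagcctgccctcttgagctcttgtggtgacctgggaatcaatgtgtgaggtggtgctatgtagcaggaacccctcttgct
LINC01060, GRCh38.p14 chr4:188455328-188455627, + strand: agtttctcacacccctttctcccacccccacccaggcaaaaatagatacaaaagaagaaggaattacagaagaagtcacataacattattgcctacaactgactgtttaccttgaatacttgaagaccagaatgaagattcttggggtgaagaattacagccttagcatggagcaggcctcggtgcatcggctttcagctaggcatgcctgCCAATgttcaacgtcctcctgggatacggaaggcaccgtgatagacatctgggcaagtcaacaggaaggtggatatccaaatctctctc
LINC00152, GRCh38.p14 chr2:87455177-87455476, + strand: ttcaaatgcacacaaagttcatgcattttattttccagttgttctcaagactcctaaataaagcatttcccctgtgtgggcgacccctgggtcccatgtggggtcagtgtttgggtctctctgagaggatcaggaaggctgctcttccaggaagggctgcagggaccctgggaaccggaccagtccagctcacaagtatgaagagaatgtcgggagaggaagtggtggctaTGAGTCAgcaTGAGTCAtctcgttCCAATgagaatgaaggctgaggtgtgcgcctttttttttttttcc
LINC01278, GRCh38.p14 chrX:63561046-63561345, - strand: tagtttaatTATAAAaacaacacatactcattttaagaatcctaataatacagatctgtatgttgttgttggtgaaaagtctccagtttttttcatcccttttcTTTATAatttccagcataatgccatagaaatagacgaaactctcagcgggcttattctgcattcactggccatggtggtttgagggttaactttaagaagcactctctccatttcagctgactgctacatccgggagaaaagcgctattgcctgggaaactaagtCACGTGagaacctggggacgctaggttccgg

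The promoter of LINC01021 held a full p53 site of 20 bases from position -127 relative to the start. Of all 35116 RefSeq promoters of this length, 10 held such a site (0.0285%), and LINC01021 was the 1 case among the 109 tested LINC genes with a promoter entry. LINC01021 is now called PURPL and is known as a p53-induced RNA. The promoter of LINC00152, the gene now called CYTOR, held a pair of AP-1 motifs (TGANTCA) at -19 and -9, and a CCAAT box at 5. The AP-1 motif was found in 7.71% of all promoters and in 12 of the 109. The LINC01060 promoter held a CCAAT box (CCAAT), found in 34.6% of all promoters and in 39 of the 109. It also held 1 single p53 element, a motif in 6.63% of all promoters and in 3 of the 109. The LINC01278 promoter held a pair of matches to the TATA box, TATAAA, at -241 and, on the opposite strand, at -146. That motif was in 11.5% of all promoters and in 15 of the 109. It also held an E-box, CACGTG, which was in 7.26% of all promoters and in 9 of the 109. The GC box, GGGCGG, was in 51 of the 109 and in 45.0% of all promoters. The ETS motif, CCGGAAG, was in 15 and in 10.3%. The interferon response motif, searched by name, was in 2 and in 3.57%. Promoters rich in CpG, with at least 50% G and C and an observed to expected CpG ratio of at least 0.6, made up 44.0% of the 109 and 46.9% of all. Matches describe letters and show no binding.

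LINC genes moved up more often than down. Of the 161 that could be tested, 27 rose and 8 fell with CDK12 by edgeR's quasi-likelihood test at a Benjamini-Hochberg adjusted p of 0.05, and 126 did not pass. In these bulk libraries, fewer cells that make an RNA and less of it per cell cannot be told apart. Over all 14665 genes tested, 16.2% rose and 18.9% fell, so that the 16.8% of LINC genes that rose is near the background while the 4.97% that fell is below it. The median log2 fold change was 0.17 for the LINC genes and 0.00 for all genes, with 111 LINC genes above 0 and 50 below. The rises were mostly modest: 5 genes rose and 1 fell by 2-fold or more. Among these rises, LINC00242 met the count minimum through the CDK12 libraries only, so its groups had to differ. The groups of libraries did not overlap for 43 LINC genes in the upward direction (26.7%) and for 12 downward (7.45%), where all genes gave 22.1% and 23.6%. All 35 called genes were among these. Another 16 had an unadjusted p under 0.05 but did not pass after adjustment. With upper-quartile factors 31 LINC genes rose and 7 fell, and with total counts 32 and 7. The split over all genes moved more, from 2371 higher and 2772 lower to 3164 and 2144 or 3324 and 2064, a share of higher calls of 46.1%, 59.6% and 61.7% in that order.

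**Figure D1:**
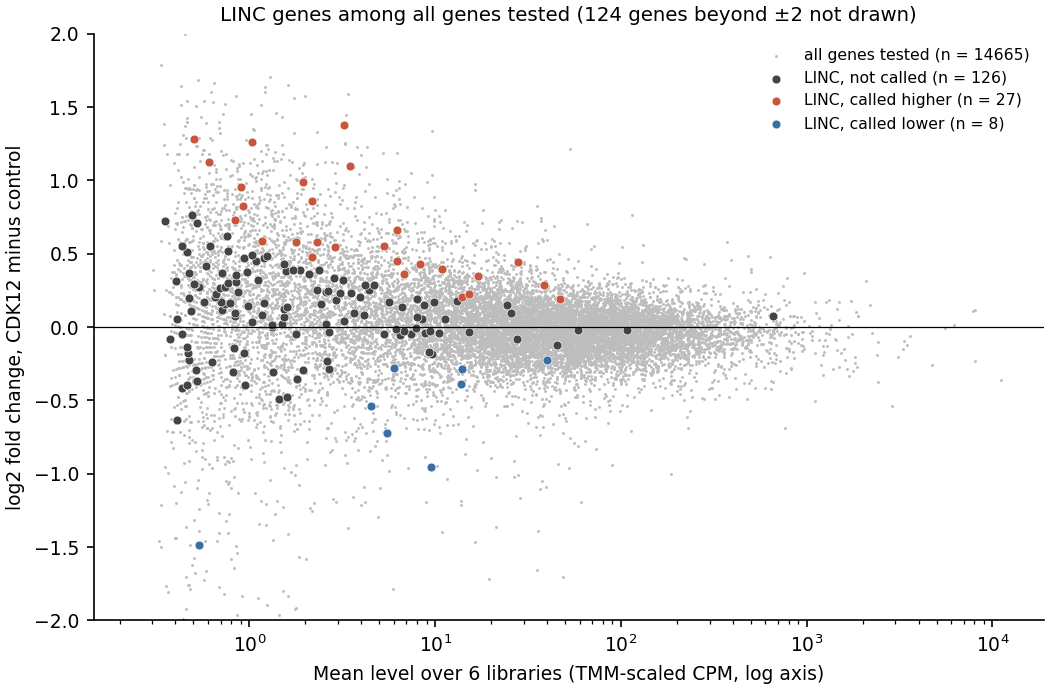
Log2 fold change (CDK12 minus control) against the mean level in TMM-scaled CPM on a log axis, with 1 point per gene: grey for all 14665 genes tested, red for the 27 LINC genes called higher, blue for the 8 called lower and black for the 126 not called. LINC points lie mostly at low levels and more often above 0 (111) than below (50). The 124 genes beyond 2 in either direction are not drawn.

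Level matters to these counts, since most LINC genes were scarce. Their median level was 1.78 CPM, against 24.1 CPM over all genes. Among genes with a mean of 1 to 10 CPM, 15 of 82 LINC genes rose (18.3%) and 4 fell (4.88%), beside 21.4% and 10.2% of all genes of that level. Under 1 CPM, 5 of 58 rose (8.62%) and 1 fell (1.72%), beside 11.3% and 9.77%. At 10 CPM or more, 7 of 21 rose (33.3%) and 3 fell (14.3%), beside 14.9% and 23.5%. The median log2 fold changes of LINC and of all genes were 0.21 and 0.15 under 1 CPM, 0.17 and 0.09 from 1 to 10 CPM, and 0.07 and -0.02 above. The median over all genes was therefore also above 0 under 10 CPM. Antisense genes, chosen by a symbol ending in -AS with or without a digit and by the same count minimum, had a median of 0.19, with 80 higher (21.8%) and 8 lower (2.18%) of 367 tested.

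**Figure D2:**
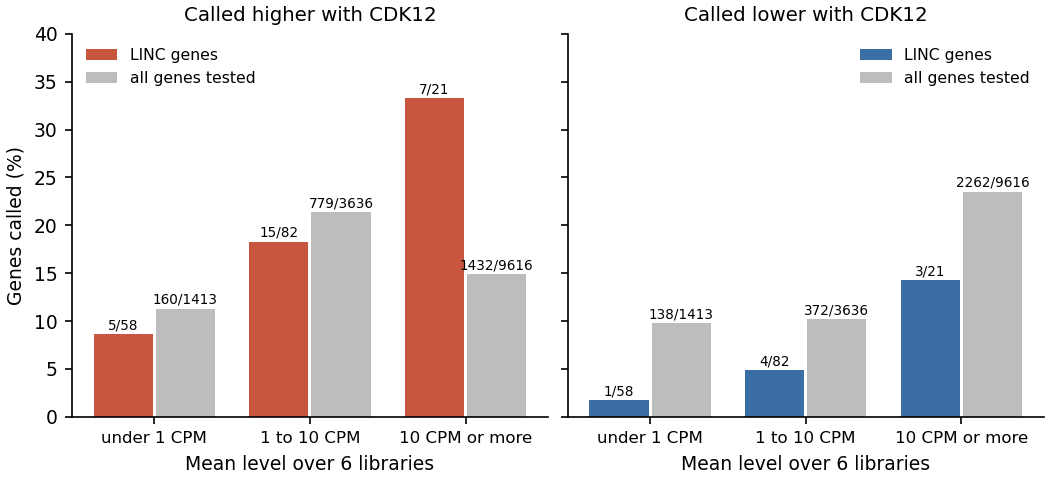
Percent of genes called higher (left) and lower (right) with CDK12, by mean level over the 6 libraries, with LINC genes in colour and all genes tested in grey; the number called and tested stands on each bar. LINC genes fell less often than all genes at each level (1.72% against 9.77%, 4.88% against 10.2%, 14.3% against 23.5%), while their share of rises was above that of all genes only at 10 CPM or more. The LINC shares of falls rest on 1, 4 and 3 genes, and levels were not matched within a range.

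The count minimum shaped the set. It was met in all 6 libraries by 126 genes, which held 25 of the 27 rises and 7 of the 8 falls. LINC00242 alone met it through the CDK12 libraries only, with 8, 4 and 8 counts in the controls and 17, 16 and 21 with CDK12, so it had to differ. Another 5 genes passed the count minimum but not the filter of the test (LINC00260, LINC00628, LINC00649, LINC00858 and LINC01359) and were not tested. Just inside the minimum lay LINC00473, with 7, 13 and 7 counts in the controls and 12, 9 and 10 with CDK12. Just outside lay 8 genes, among them LINC00511, with 5, 8 and 5 and then 11, 9 and 13 counts, and LINC00871, with 16, 9 and 13 and then 4, 5 and 3 counts.

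LINC RNAs together took a slightly larger part of the CDK12 libraries. The 166 genes held 0.152% to 0.155% of the counts in the controls and 0.165% to 0.167% with CDK12. In TMM-scaled units the sums were 1544 to 1570 CPM (control) and 1625 to 1644 CPM (CDK12). The groups did not overlap in either measure, and the exact two-sided permutation test gave p = 0.1 for each, and no smaller p can come from groups of 3. Without LINC00657, the most abundant, the shares were 0.0880% to 0.0911% and 0.0956% to 0.0979%.

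LINC01021 (PURPL, chromosome 5), whose promoter with the p53 site is shown above, had the largest rise. It was at 1.49, 2.06 and 1.83 CPM in control replicates 1 to 3. CDK12 replicates 1 to 3 were at 4.72, 4.86 and 4.38 CPM. The lowest CDK12 library stood at more than 2 times the highest control. The log2 fold change was 1.38 with an SE of 0.15 (adjusted p = 4.72e-08 by edgeR, Benjamini-Hochberg).

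LINC01060 (chromosome 4) was at 0.571, 0.624 and 0.609 CPM in the controls and at 1.19, 1.73 and 1.46 CPM with CDK12. Its controls lay close together and its CDK12 libraries spread more widely, all above them (log2 fold change 1.27, SE 0.25, adjusted p = 0.000311 by edgeR). LINC00452 (chromosome 13) went from 2.50, 2.73 and 1.5 CPM to 4.98, 4.12 and 5.13 CPM. Control replicate 3 was the lowest, and the groups stayed apart (log2 fold change 1.10, SE 0.16, adjusted p = 7.84e-06 by edgeR). LINC00431, also on chromosome 13 and listed by GENCODE 29 as a transcribed pseudogene, rose from 4.84 ± 0.38 to 7.62 ± 0.25 CPM (SD, n = 3 per group; log2 fold change 0.66).

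Other rises near 2-fold came from scarce RNAs. LINC01569 (chromosome 16) was at 1.19, 1.15 and 1.54 CPM in the controls and at 2.97, 2.39 and 2.38 CPM with CDK12, a log2 fold change of 0.99 (SE 0.19). LINC00324 (chromosome 17) was at 0.571, 0.671 and 0.609 CPM and then at 1.34, 1.11 and 1.13 CPM (log2 fold change 0.95, SE 0.26). LINC00921 (chromosome 16), which shares exon bases with the zinc finger gene ZNF263, was at 1.8, 1.1 and 1.66 CPM and then at 2.38, 2.88 and 3.17 CPM (log2 fold change 0.86, SE 0.19). In each of these 3 genes all CDK12 libraries lay above all controls. LINC00242 (chromosome 6), which met the count minimum only with CDK12, was at 0.289 ± 0.09 and 0.722 ± 0.13 CPM (SD, n = 3 per group; log2 fold change 1.28).

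Several better measured LINC genes rose by less. GENCODE lists the first of them, LINC00672, now called LASP1NB, as protein-coding. LINC00672 (chromosome 17), which lies 3397 bases from LASP1, a gene of an actin-binding protein, was at 23.2, 24.1 and 23.4 CPM in the controls and at 31.4, 32.7 and 32.1 CPM with CDK12. The spread within each group was small beside the difference (log2 fold change 0.44, SE 0.06, adjusted p = 1.9e-06 by edgeR). LASP1 itself fell (log2 fold change -0.27). LINC00993 (chromosome 10) lies within the span of ANKRD30A, which encodes a breast differentiation antigen, and rose from 31.7, 36.0 and 36.1 CPM to 42.5, 42.1 and 42.0 CPM (log2 fold change 0.29). ANKRD30A rose too (log2 fold change 0.16). LINC00641 rose from 15.02 ± 1.02 to 19.2 ± 0.365 CPM, LINC00909 from 9.43 ± 0.47 to 12.4 ± 0.675 CPM and LINC00950 from 5.24 ± 0.60 to 7.2 ± 0.05 CPM (SD, n = 3 per group). LINC00476 rose from 4.31 ± 0.61 to 6.33 ± 0.03 CPM and LINC00899 from 2.34 ± 0.44 to 3.45 ± 0.235 CPM. LINC00476 shares exon bases with ERCC6L2. LINC00950 is matched to the symbol TMEM8B and could not be placed in GENCODE.

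The 8 falls included 1 of about the size of the largest rises. LINC00536 (chromosome 8) had 15, 21 and 18 counts in the controls and 13, 4 and 4 with CDK12, or 0.659, 1.01 and 0.731 CPM and then 0.483, 0.165 and 0.167 CPM. CDK12 replicate 1 lay nearest to the controls, and the counts are small (log2 fold change -1.49, SE 0.38, adjusted p = 0.00309 by edgeR).

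LINC00342 (chromosome 2) fell more firmly. It was at 13.3, 13.6 and 10.9 CPM in the controls and at 5.95, 6.10 and 7.46 CPM with CDK12, with no overlap (log2 fold change -0.95, SE 0.10, adjusted p = 4.96e-08 by edgeR). It has near-identical copies, so the reads of several loci may be mixed. Its nearest protein-coding gene, ANKRD36C, fell as well, from 8.70 to 6.63 CPM (log2 fold change -0.39), and belongs to a family of near copies too.

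LINC01468 (chromosome 10), now called LNCAROD, fell from 5.89, 7.43 and 7.22 CPM to 4.35, 4.0 and 4.09 CPM. All CDK12 libraries lay below all controls (log2 fold change -0.72, SE 0.12, adjusted p = 2.48e-05 by edgeR). It was named for an effect on DKK1, the gene of a secreted WNT inhibitor and its nearest tested protein-coding gene, 132831 bases away in GRCh38. DKK1 fell from 85.3 to 37.2 CPM (log2 fold change -1.20). LINC00854 (chromosome 17) fell from 5.33 ± 0.26 to 3.68 ± 0.28 CPM (SD, n = 3 per group; log2 fold change -0.54). LINC00854 is now called CCDC200 and is listed in GENCODE as protein-coding. It shares exon bases with TMEM106A on the opposite strand, which fell equally (log2 fold change -0.55). The reads of LINC00854 and TMEM106A cannot be told apart where strand was not used in counting. LINC01278 (chromosome X), shown above, fell from 42.2, 43.6 and 42.9 CPM to 36.2, 36.6 and 37.4 CPM (log2 fold change -0.22, SE 0.05). The fall was small, and the spread within groups was smaller.

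**Figure D3:**
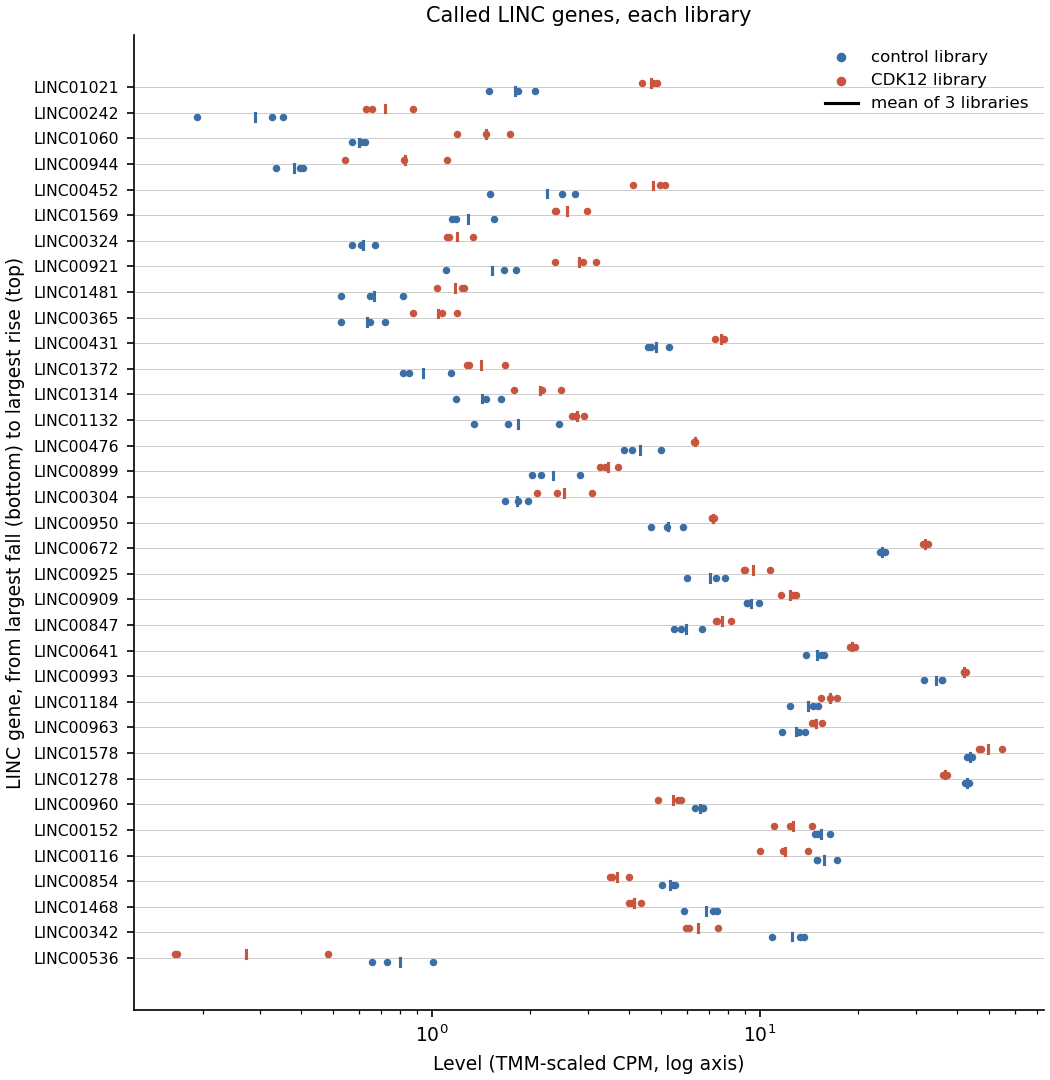
Level of the 35 called LINC genes in each library, in TMM-scaled CPM on a log axis, ordered from the largest fall at the bottom to the largest rise at the top; blue points are the 3 control libraries, red points the 3 CDK12 libraries, and bars the mean of each group. In each row the groups do not overlap, as in LINC01021 at the top, with 1.49 to 2.06 CPM against 4.38 to 4.86 CPM.

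Of the 35 calls, 13 were lost in at least 1 alternative, mostly on leaving out a library. LINC00152 (CYTOR, shown above), which has a known duplicate on chromosome 2 and is studied as a cancer-associated RNA, fell from 15.4 ± 0.83 to 12.6 ± 1.68 CPM (SD, n = 3 per group; log2 fold change -0.28). It did not pass without control replicate 3 (edgeR adjusted p = 0.0699) or CDK12 replicate 2 (0.0954). LINC01578, now called CHASERR and known to act on its neighbour CHD2, rose from 43.9, 44.3 and 42.9 CPM to 55.0, 47.3 and 46.9 CPM, and did not pass without CDK12 replicate 1 (adjusted p = 0.151 by edgeR). CHD2 was at 221 and 231 CPM without passing (adjusted p = 0.311). LINC00944 (log2 fold change 1.13) did not pass without CDK12 replicate 1 (edgeR adjusted p = 0.0889), LINC01481 (0.82) without control replicate 1 (0.0787) and LINC00847 (0.36) without control replicate 1 (0.0529). LINC01132 (0.58) did not pass without control replicate 1 (edgeR adjusted p = 0.0533) or 2 (0.0964). LINC01184 (0.22) and LINC01314 (0.58) did not without control replicate 1 (edgeR adjusted p = 0.236 and 0.109) or CDK12 replicate 2 (0.126 and 0.111). LINC01314, now called CTXND1, is listed in GENCODE as protein-coding. LINC00365 (0.73), LINC01372 (0.59), LINC00304 (0.48), LINC00963 (0.20) and LINC00960 (-0.28) each lost the call on leaving out 4 or 5 of the 6 libraries in turn. Their adjusted p by edgeR then reached 0.133, 0.188, 0.22, 0.229 and 0.192 in the same order.

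Of 9 listed LINC genes known to encode microproteins, 6 were in the files, 4 were tested and 1 fell, where 18.9% of all genes fell. LINC00961 (0 to 6 counts per library) and LINC00675 (3 to 7) were too scarce to test. LINC00116, now MTLN, encodes mitoregulin, a microprotein of the inner mitochondrial membrane. It was at 14.9, 14.9 and 17.3 CPM in the controls and at 14.1, 10.01 and 11.8 CPM with CDK12, with CDK12 replicate 1 close to the controls (log2 fold change -0.39, SE 0.10, adjusted p = 0.00216 by edgeR). LINC01420, now NBDY, encodes a microprotein of messenger RNA decapping and was at 28.5 ± 1.42 and 26.95 ± 1.45 CPM (SD, n = 3 per group). LINC00493, now SMIM26, was at 59.2 ± 3.94 and 58.4 ± 6.57 CPM and LINC00998, now SMIM30, at 24.8 ± 3.16 and 26.5 ± 0.96 CPM. These 3 did not pass, with log2 fold changes of -0.08, -0.02 and 0.09 and overlapping groups.

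Of the 8 most abundant LINC RNAs by CPM, LINC00672, LINC00993 and LINC01578 rose, LINC01278 fell, and LINC00657, LINC00674, LINC00493 and LINC01000 did not pass. All genes with a mean of 10 CPM or more gave 14.9% higher and 23.5% lower. LINC00657 (chromosome 20), now NORAD, is a cytoplasmic RNA that binds Pumilio proteins. It was at 650, 640 and 645 CPM in the controls and at 673, 701 and 662 CPM with CDK12. All CDK12 libraries lay above all controls, but the difference did not pass (log2 fold change 0.07, SE 0.04, adjusted p = 0.154 by edgeR). With upper-quartile factors or total counts it did (adjusted p = 0.0326 and 0.0224). Its longest GENCODE 29 transcript, of 5339 bases, held 15 Pumilio motifs (TGTANATA, on the transcript strand), while no other of the 148 LINC genes with a transcript held more than 2 and 125 held 0. Per kilobase of exon, LINC00674 was at 149 and 147 CPM (control and CDK12), LINC00657 at 121 and 127, LINC00493 at 53.9 and 53.2 and LINC00993 at 29.5 and 35.9. LINC00674 and LINC00657 have near copies, and exon lengths come from GENCODE 29 rather than from the annotation used for counting.

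Of the 22 cancer-studied genes listed, 12 were tested, 2 rose (LINC00324 and LINC00963) and 1 fell (LINC00152). Over all genes, 16.2% rose and 18.9% fell, so the rises are near the background. LINC00467 was at 8.40 ± 0.55 and 8.68 ± 1.69 CPM and LINC00665 at 6.30 ± 0.77 and 6.91 ± 0.55 CPM (SD, n = 3 per group), with neither passing. Of 8 hormone and luminal genes 4 were tested, and LINC00993 rose. LINC00160 was at 0.860 and 1.09 CPM, LINC00885 at 2.55 and 2.6 CPM and LINC00504 at 9.82 and 8.67 CPM, without passing. Of 5 genes of leukocytes, LINC00926 was tested (1.31 and 1.32 CPM, not passing). None of the 4 listed small RNA host genes reached the test.

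In GRCh38, 6 of the 148 placed genes held 7 microRNA hairpins on their own strand. The mature microRNAs of the best known hosts follow, with the seed (bases 2 to 8) in capitals, since 2 of them share a seed.
hsa-miR-9-5p: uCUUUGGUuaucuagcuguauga
hsa-miR-30a-5p: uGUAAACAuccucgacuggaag
hsa-miR-30c-5p: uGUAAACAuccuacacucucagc

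The host of the miR-9 hairpin MIR9-3 is LINC00925 (chromosome 15), which rose from 7.82, 6.00 and 7.35 CPM to 8.96, 10.8 and 9.0 CPM (log2 fold change 0.43, SE 0.11, adjusted p = 0.0022 by edgeR). All CDK12 libraries lay above all controls. LINC00472 (chromosome 6) holds the hairpins of miR-30a and miR-30c, whose 5p arms share the seed GUAAACA, and was at 1.12 ± 0.24 and 1.28 ± 0.43 CPM (SD, n = 3 per group) without passing. Mature microRNAs carry no poly(A) tail and were not measured in these libraries.

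The log2 fold changes of LINC genes and of their nearest protein-coding genes were only weakly correlated. Most LINC genes were scarce, and counting error in their fold changes lowers such a correlation. These values therefore cannot settle whether LINC genes moved with their neighbours. The nearest tested protein-coding gene lay within 100000 bases for 115 LINC genes. Across these pairs the log2 fold changes had a Pearson correlation of 0.13 and a Spearman correlation of 0.13, as a description across genes that share the same libraries. The signs were equal in 61 of 115 pairs. Of the neighbours 16 rose and 24 fell (35.1% of all genes were called), with a median log2 fold change of -0.04 against 0.17 for their LINC genes. Both genes were called in 6 pairs, in the same direction in 3, those of LINC00342, LINC00854 and LINC00993. LINC00672 and LASP1, LINC00925 and POLG, and LINC00899 and WNT7B went apart, with falls of -0.27, -0.28 and -0.38 in the protein-coding genes. Among 20 pairs in head to head order, with starts within 2000 bases on opposite strands, 9 neighbours fell and 2 rose. All genes gave 18.9% lower and 16.2% higher. Of the LINC genes in these pairs 3 were called, beside 21.7% of all LINC genes tested and 35.1% of all genes. No head to head pair had both genes called, and the Pearson correlation was 0.35.

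**Figure D4:**
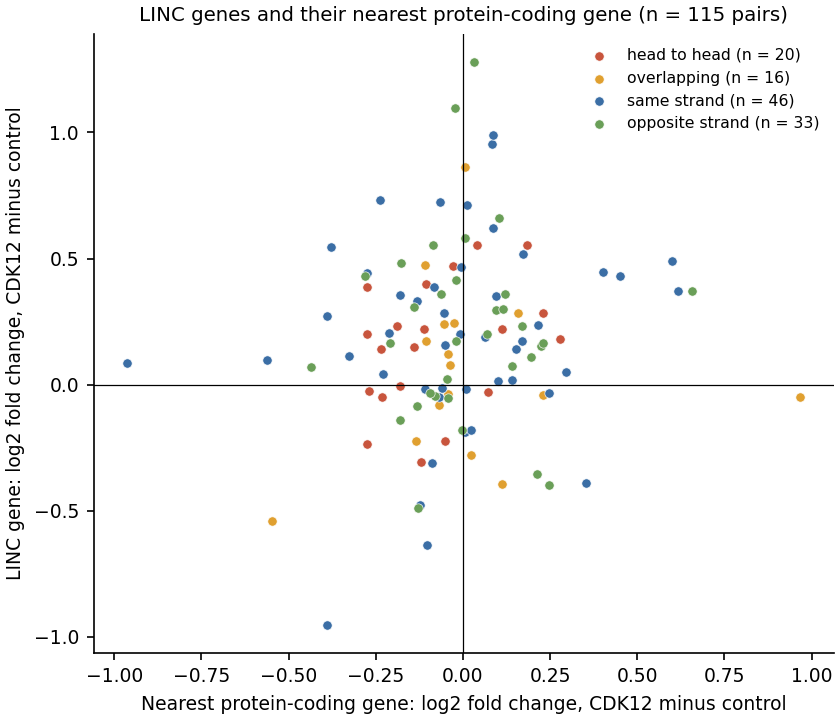
Log2 fold change (CDK12 minus control) of the LINC gene against that of its nearest tested protein-coding gene, with 1 point per pair for 115 pairs within 100000 bases in GRCh38, coloured by their order on the chromosome. Points lie on both sides of 0 on each axis, with equal signs in 61 of 115 pairs.

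The span in GRCh38 and the log2 fold change had a Spearman correlation of -0.09 over 144 genes. The median span was 14837 bases for 24 placed genes that rose, 135208 bases for the 8 that fell and 13372 bases for the 112 that did not pass.

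Of 24 well known long non-coding RNAs tested that are named outside the LINC series, 6 rose and 1 fell, with a median log2 fold change of 0.07, beside 16.2% higher and 18.9% lower over all genes. GAS5, a small nucleolar RNA host, rose from 215 to 257 CPM (log2 fold change 0.26), EPB41L4A-AS1 from 19.8 to 24.4 CPM (0.30) and SNHG15 from 21.2 to 27.7 CPM (0.38). DANCR, another small nucleolar RNA host, fell from 36.7 to 31.8 CPM (-0.21). Of 25 tested genes of the nuclear RNA exosome and its adaptors, 4 rose and 5 fell, near the background in both directions, with a median of 0.00. ZFC3H1, of the connection between the exosome and poly(A) tails, rose from 127 to 142 CPM (log2 fold change 0.17), and RBM7 and ZCCHC8, subunits of the nuclear exosome targeting complex, rose by 0.22 and 0.14. DIS3, an exosome nuclease, rose from 88.6 to 97.4 CPM (0.14). PAPD7, a non-canonical poly(A) polymerase, had the largest fall of the list, from 115 to 94.1 CPM (-0.30). EXOSC3 (-0.23), EXOSC4 (-0.16) and EXOSC6 (-0.26), subunits of the exosome core, fell, and the groups overlapped for EXOSC6. SRRT (-0.15) fell as well.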

How the data were processed

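Polyadenylated RNA of 6 ZR-75-30 libraries was sequenced. Per the submitters' processing notes, the authors used STAR 2.6.0c, CASAVA 1.8, Subread 1.6.2 (featureCounts) and hg19. The deposited values are raw counts per gene symbol, whole numbers with a different total in each library. Strand setting, annotation and handling of multiply mapping reads: not given in the sources used here. Members and lists were chosen with earlier results of these data known.

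Genes passing filterByExpr (minimum count 10, minimum total 15) were tested with edgeR 4.0.16 (R 4.3.3), TMM scaling and a quasi-likelihood F test on group; p-values are two-sided, adjusted by Benjamini-Hochberg over 14665 genes, threshold 0.05. The SE is the log2 fold change divided by the square root of F. A count of 3, which a 0 allows, is 0.112 to 0.144 CPM, for counting error only. Alternatives were other scalings, filters, DESeq2 1.42.0, limma 3.58.1 (voom), the replicate number as a block, each library left out, and stricter membership.

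Named LINC genes were the 12 largest rises and falls among calls with 0.5 CPM in the higher group and no overlap, the 8 highest levels and the listed genes; the other called genes were added after their values were seen. Symbols were placed through RefSeq synonyms (GRCh38.p14) in GENCODE 29; no coordinate is mixed with hg19. Promoters and microRNAs are RefSeq sequences, with 112 of 166 promoters matched. A near copy is another gene's transcript with at least 95% identity over at least 50% of the longest transcript (blastn 2.17.0). A leukocyte marker listed in the design is not reported here.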

Additional observations from a re-analysis of the deposited data

How the results depend on the processing

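The counts of LINC genes that rose stayed between 18 (DESeq2 Wald test) and 32 (total counts), and of those that fell between 6 and 8, in the 14 alternatives of scaling, filter, test, block and left-out library. The median log2 fold change of the LINC genes was 0.21 with upper-quartile factors and 0.21 with total counts, against 0.17 with TMM; the median over all genes moved to 0.04 and 0.05. Leaving out 1 library at a time gave LINC medians from 0.14 to 0.18, and without CDK12 replicate 1, the library farthest from its group, 24 rose and 8 fell. Requiring 10 counts in all 6 libraries left 25 rises and 7 falls. The replicate numbers showed no regular pairing of the libraries. The deviations of same-numbered libraries correlated at -0.24, 0.30 and 0.17, and control replicate 1 correlated best with CDK12 replicate 3. With 3 libraries per group, these values cannot settle whether the libraries were paired. With the replicate number as a block, 25 LINC genes rose and 8 fell, and 5106 of all genes were called, against 5143. Of the 35 called LINC genes, 22 were called in each alternative in which they were tested; by the DESeq2 Wald test 10 were not, LINC01132 (adjusted p = 0.0561) and LINC00944 (0.0632) among them. The correlation with neighbours was 0.13 for gaps up to 10000 bases and 0.13 without overlapping pairs. Most LINC genes lie under 2 CPM, where counting error limits what can be called. The causes were not tested.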

Other observations

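The 708 LINC symbols under the count minimum, of which 294 had no count in any library, held 620, 668 and 693 counts in total in control replicates 1 to 3 and 768, 726 and 642 counts in CDK12 replicates 1 to 3. Scaled by TMM this was 27.2, 32.0 and 28.1 CPM in the controls and 28.5, 29.9 and 26.8 CPM with CDK12, so that the groups overlapped. At least 1 count was seen for 236, 247 and 262 of these symbols in the controls and for 223, 221 and 207 in the CDK12 libraries, without overlap. These counts of symbols were not scaled to a common depth, and the part of depth in them was not tested.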
